A study of Mus musculus with 6 samples.

Results

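Transcripts of processed pseudogenes were examined in the forebrain of Slc13a4+/- and wild-type mice. A transcript was taken when GENCODE M21 types it as processed_pseudogene or transcribed_processed_pseudogene and when its estimated count, the number of reads that Salmon assigned to it, averaged at least 20 over the 6 mice. This gave 360 transcripts, 335 of the first type and 25 of the second, out of 10166 processed pseudogene transcripts and 117135 transcripts listed. Of the 10166, 6494 had an average above 0. The members were thus chosen by their mean estimated count, and levels are given as a description.

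The whole forebrain was sequenced at postnatal day 20 from 3 Slc13a4+/- mice (Nas2Del_Het_1024, Nas2Del_Het_1025 and Nas2Del_Het_1027) and 3 wild-type mice (Nas2Del_WT_1016, Nas2Del_WT_1018 and Nas2Del_WT_1026) of the C57BL/6 strain. The labels write the genotype as Nas2Del +/- Het, and the Slc13a4+/- mice carried 1 inactive allele of Slc13a4, which encodes a sulfate transporter. The libraries were stranded and made from total RNA depleted of rRNA, so unspliced RNA could be sequenced too. The controls were wild-type littermates, but which mice shared a litter is not given, and p-values measure the spread between these 6 animals.

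A processed pseudogene arises when a mature mRNA is copied into DNA and inserted elsewhere in the genome. The copying enzyme is the reverse transcriptase encoded by the second open reading frame (ORF2) of LINE-1, a retrotransposon whose first open reading frame (ORF1) encodes an RNA-binding protein. The copy carries no introns and usually no promoter, and highly expressed housekeeping genes, such as those of ribosomal proteins and glycolytic enzymes, have many. Because a young copy is nearly identical to its parent mRNA, a short read often cannot be placed on one or the other, and Salmon then divides such reads by a model.

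The 360 members fell into 3 kinds by sequence. In 187 members at least 50% of the length matched the transcript of a coding gene, its parent, at 80% identity or more and over its coding sequence, and 2 others took their parent from the symbol alone. In 82 members the sequence was a piece of LINE-1. Of the rest, 20 matched a coding gene's transcript mostly outside its coding sequence and 69 matched none. The sequences of 4 Gapdh-related lines are shown first, since they span the range from a copy that reads cannot separate from its parent to an old, diverged one. Each line holds 120 bases of GRCm38 5′ to 3′ on the transcript's strand, read from the GENCODE M21 transcripts, and capitals mark bases that differ from the Gapdh coding sequence. The Gapdh line covers coding bases 105 to 224. Gm10359 lies at chr5:105863479-105863598 on the minus strand, Gm14113 at chr2:147289865-147289984 on the plus strand and Gm8707 at chr9:41654408-41654527 on the plus strand.
Gapdh: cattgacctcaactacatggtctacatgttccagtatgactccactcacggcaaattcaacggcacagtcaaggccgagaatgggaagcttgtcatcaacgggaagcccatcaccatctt
Gm10359: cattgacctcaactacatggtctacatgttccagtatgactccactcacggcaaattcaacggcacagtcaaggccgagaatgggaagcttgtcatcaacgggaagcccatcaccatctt
Gm14113: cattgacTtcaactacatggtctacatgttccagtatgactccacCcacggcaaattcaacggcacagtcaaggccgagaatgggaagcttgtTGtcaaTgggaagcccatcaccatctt
Gm8707: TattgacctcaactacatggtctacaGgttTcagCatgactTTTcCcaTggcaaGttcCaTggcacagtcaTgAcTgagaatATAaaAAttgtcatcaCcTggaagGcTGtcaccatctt
Over this stretch Gm10359 had 0 differences, Gm14113 had 5 and Gm8707 had 25. Over their whole alignments the numbers were 0 of 1002 bases, 75 of 969 and 168 of 978.

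The ribosomal protein copies Gm4332 (chr3:119709759-119709848, plus strand) and Rpl10a-ps1 (chr1:64994515-64994604, minus strand) are shown over 90 bases each beside their parents, since the former had the lowest p of all members and the latter the largest ratio of the highest to the lowest mouse, with 1 count added to each. Capitals again mark bases that differ from the parent.
Rps20: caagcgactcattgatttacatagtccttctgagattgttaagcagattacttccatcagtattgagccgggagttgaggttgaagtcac
Gm4332: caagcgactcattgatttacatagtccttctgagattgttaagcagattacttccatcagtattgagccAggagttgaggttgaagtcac
Rpl10a: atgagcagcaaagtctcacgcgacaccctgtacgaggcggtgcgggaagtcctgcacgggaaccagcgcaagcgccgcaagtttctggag
Rpl10a-ps1: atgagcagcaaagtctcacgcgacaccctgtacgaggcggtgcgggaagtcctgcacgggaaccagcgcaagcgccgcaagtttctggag
Gm4332 differed from Rps20 at 1 of 346 bases, and Rpl10a-ps1 differed from Rpl10a at 0 of 654.

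For the LINE-1 members, 120 bases around the codons for the Phe-Ala-Asp-Asp motif of the reverse transcriptase are shown, with the 12 bases of these codons in capitals. They come from the 2 most abundant ORF2 copies that hold the motif and from the most abundant of those with under 50% of their sequence shared with other listed transcripts. Gm42927 lies at chr3:120737378-120737497 on the minus strand, Gm48128 at chr10:49828333-49828452 on the plus strand and Gm42785 at chr3:39825640-39825759 on the plus strand.
Gm42927: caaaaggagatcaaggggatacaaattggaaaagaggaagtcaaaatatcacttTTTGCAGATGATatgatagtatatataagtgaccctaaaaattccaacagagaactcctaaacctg
Gm48128: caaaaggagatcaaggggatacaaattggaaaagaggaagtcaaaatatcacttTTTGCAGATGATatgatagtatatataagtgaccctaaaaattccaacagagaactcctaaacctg
Gm42785: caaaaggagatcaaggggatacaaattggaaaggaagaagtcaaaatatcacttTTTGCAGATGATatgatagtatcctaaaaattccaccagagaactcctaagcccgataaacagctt
The motif was encoded in 37 of the 65 members assigned to ORF2 and in 0 of the members outside ORF2.

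The libraries held 60340337 to 80410582 estimated counts. In CPM, counts scaled to the size of the library, Slc13a4 was at 5.59, 6.36 and 5.34 in the Slc13a4+/- mice and at 10.6, 9.36 and 8.30 in the wild-type mice, with a log2 fold change of -0.67 ± 0.11 (SE) on genes. DESeq2 gave an adjusted p of 0.0024 for it and edgeR one of 0.499. All 6 forebrain markers were at 1 CPM or more on average and 0 of 6 hindbrain markers were. Markers of the choroid plexus summed to 362 to 433 CPM in the Slc13a4+/- and 456 to 465 CPM in the wild-type mice, and those of microglia to 144 to 155 against 164 to 169 CPM. Neither list overlapped between genotypes, and its part in the results below was not tested. The Y-linked gene Ddx3y was at 107 CPM in Nas2Del_WT_1016 and at most 0.0331 CPM in the other 5 mice. The 4 Y-linked markers, Ddx3y among them, summed to 212 CPM in Nas2Del_WT_1016 and to 5.11 to 12.6 CPM in the others. By these genes 1 wild-type mouse and no Slc13a4+/- mouse was male. Sex is not in the labels and was not part of the fits. It was thus not balanced between genotypes, and its part in the fold changes was not tested.

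Of all counts, the members held 0.254% to 0.295% in Slc13a4+/- and 0.225% to 0.278% in wild-type animals. The means were 0.269% ± 0.0228 and 0.255% ± 0.0270 (SD, n = 3 each), and the 2-sided exact permutation p was 0.6, where 3 mice against 3 cannot give less than 0.1. The shares of the genotypes overlapped. Mean estimated counts ran from 20 to 13397 with a median of 118. They were 1000 or more in 49 members and under 100 in 162. Of the 360, 333 had a single exon, 340 were the only listed transcript of their gene and 307 carried a Gm symbol with no hint of origin. The chromosomes included X with 28 members and Y with 1. At the lower edge of the rule stood Zcchc9-ps at a mean count of 20.2, Gm6627 at 20.1 and Gm44954 at 20, and just outside it Gm7278 at 19.96, Gm18981 at 19.84 and Gm12369 at 19.84.

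By length-scaled level, in TPM, which Salmon derives from counts per length, Gm10123 stood first at a mean of 1164 TPM. It is a copy of Ppia, which encodes the prolyl isomerase cyclophilin A, with 100% identity. Its estimated counts were 15054, 12110 and 14013 in the Slc13a4+/- mice (Nas2Del_Het_1024, Nas2Del_Het_1025 and Nas2Del_Het_1027, the order used throughout) and 12411, 13052 and 13742 in the wild-type mice (Nas2Del_WT_1016, Nas2Del_WT_1018 and Nas2Del_WT_1026). In CPM it was at 193, 170 and 185 in the Slc13a4+/- mice and at 189, 216 and 178 in the wild-type mice. The genotypes overlapped, and Nas2Del_WT_1018 was the highest. Of the 9 other members with the most counts, Gm7536 (Rpl27a) was at 541 TPM, Rps23-ps1 at 499, Gm1821 (Ubb, a polyubiquitin gene) at 327, Tpt1-ps3 at 320, Gm10359 (Gapdh) at 258 and Gm15387 (Hmgb1, a chromatin protein) at 216 TPM. These 6 matched their parents at 98.54% identity or more. The last 3 of the 10 had no such parent. Gm48368, at 78.7 TPM, matched Noct at 86.09% only outside its coding sequence, and Gm42927 and Gm48128 were LINE-1 copies at 47.6 and 24.5 TPM.

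**Figure D1:**
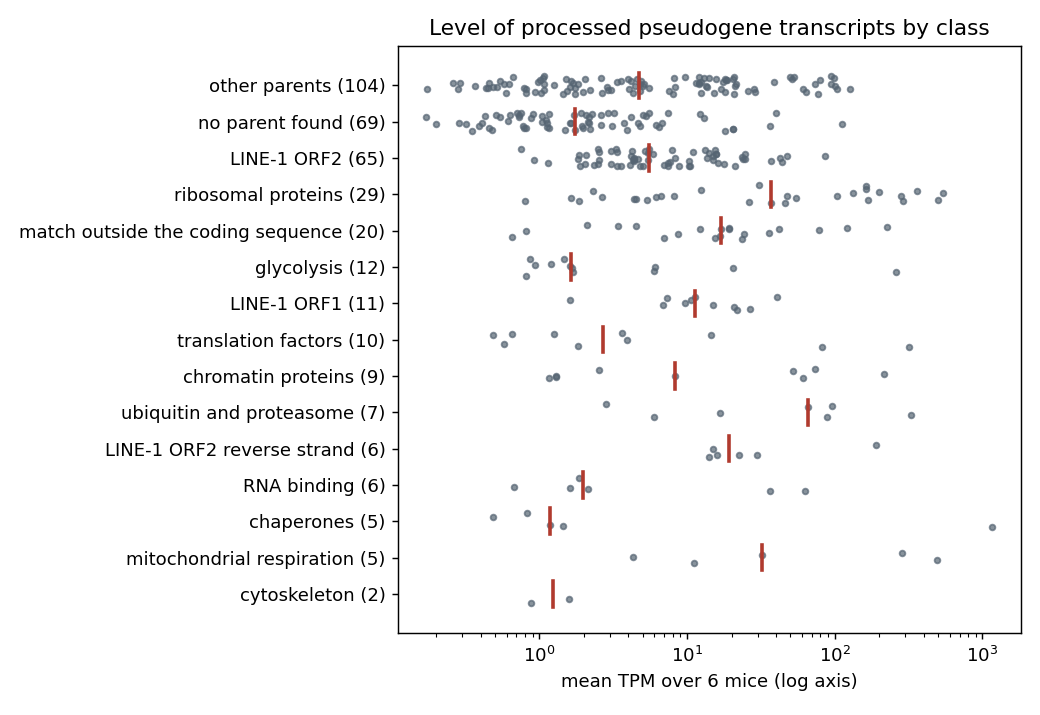
Mean level of the 360 processed pseudogene transcripts by class, in TPM over 6 mice on a log axis. Each point is 1 transcript, the number of transcripts stands in brackets and red bars mark class medians, which were 37.0 TPM for the 29 ribosomal protein copies and 5.505 TPM for the 65 LINE-1 ORF2 copies.

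Copies of ribosomal protein genes numbered 29 of 1926 listed, had a median of 37.0 TPM and held 15.7% of the members' counts. Their median identity to the parent was 99.76%. Glycolysis gave 12 of 426 listed, of which 9 were copies of Gapdh and 1 each of Pgk1, Pgam1 and Ldha. Among translation factors 10 of 163 were members, led in counts and in TPM by Tpt1-ps3. Chromatin proteins gave 9 of 370, the ubiquitin and proteasome group 7 of 154, and RNA-binding proteins 6 of 180, led likewise by Gm13092 (Snrpf, a core protein of spliceosomal particles) at 63.2 TPM. Chaperones gave 5 of 165, led by Gm10123. Mitochondrial respiration gave 5 of 198, and Ndufb4c, a copy of a complex I subunit gene, had the most counts among them and 285 TPM, while the cytoskeleton gave 2 of 88, led by Gm16385 (Actg1) at 1.60 TPM. The other 104 members with a coding parent belonged to none of these classes, and Morf4l1-ps1, at 73.8 TPM, had the most counts. No ferritin copy reached the mean of 20 counts.

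The 9 Gapdh copies form the family with the most members. Gapdh itself, a glycolytic enzyme, was at 1401 to 1475 CPM in the Slc13a4+/- and 1408 to 1501 CPM in the wild-type mice. Gm10359, at 100% identity, was at a mean of 258 TPM. The 2 copies at 99.9% were at 5.97 TPM (Gm12070) and 1.62 TPM (Gm5559), and Gm3272 at 99.42% was at 1.68 TPM. Below 95% identity, Gm6981 was at 1.66 TPM, Gm4804 at 0.812, Gm14113 at 1.19, Gm7745 at 0.866 and Gm8707, at 81.13%, at 6.03 TPM. The level did not fall steadily with identity, since Gm12070 and Gm8707 stood at 5.97 and 6.03 TPM. Gm8707 lay on an exon of Gm49317 on the same strand, and reads of the 2 annotations cannot be told apart where they overlap.

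LINE-1 made up 82 of the 360 members and 33.6% of their counts. By alignment to full-length copies, 65 matched ORF2, 11 matched ORF1 and 6 matched ORF2 on the opposite strand. These were nearly all such sequences that the annotation types as processed pseudogenes, since 68, 12 and 8 are listed. The ORF2 members had a median length of 3778 bases against 441 for the ribosomal protein copies, and 32 were 3800 bases or longer. The longest open frame exceeded 1200 codons in 8 of the 65. In 6 of the 11 ORF1 members an ORF2 annotation followed 42 to 56 bases downstream on the same strand, the order of an intact element. Gm48269 (ORF1, chr10:50183039-50184149, minus strand) thus lay 44 bases before Gm48132 (ORF2), and Gm47103 (ORF1, chr9:105085920-105087030, plus strand) lay 44 bases before Gm47102. In these pairs the ORF1 part was at 26.6 TPM and the ORF2 part at 13.3 TPM for the former, and at 6.84 and 15.7 TPM for the latter. The highest LINE-1 level per length was that of Gm38356, a reverse-strand piece of 408 bases, at 189 TPM, and among ORF1 members it was that of Gm48216 at 40.5 TPM.

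The LINE-1 members moved together between mice, and the 2 mice at the extremes were of opposite genotype. Their summed level was 858, 1152 and 857 CPM in the Slc13a4+/- mice and 870, 919 and 638 CPM in the wild-type mice. Nas2Del_Het_1025 was the highest and Nas2Del_WT_1026 the lowest, while the other 4 mice lay between 857 and 919 CPM, with both remaining Slc13a4+/- mice below both remaining wild-type mice. Of the 82 copies, 75 (91.5%) were highest in Nas2Del_Het_1025 and 75 were lowest in Nas2Del_WT_1026, against 24.4% and 16.8% of all 55196 transcripts tested. Members outside LINE-1 leaned to these mice too. The counts were 39 and 31 of the 69 with no parent, and 15 and 12 of the 20 matched outside a coding sequence. Among the 187 with a parent by sequence they were 36 and 34. In the median LINE-1 copy, 20.6% of the windows as long as a read also occur in another listed transcript. The copies thus share part of their reads, so they are not 82 separate measurements. Shared sequence was looked for among listed transcripts only. Whether reads of LINE-1 copies that are not listed were counted on these members was not tested, so a level need not belong to its locus. Gm42927, the copy with the most counts, had 80.1, 112 and 80.4 CPM in the Slc13a4+/- mice and 81.5, 89.6 and 59.7 CPM in the wild-type mice. Gm38356, of the reverse strand, had 21.3, 32.8 and 21.9 CPM against 21.6, 23.7 and 17.0 CPM.

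**Figure D2:**
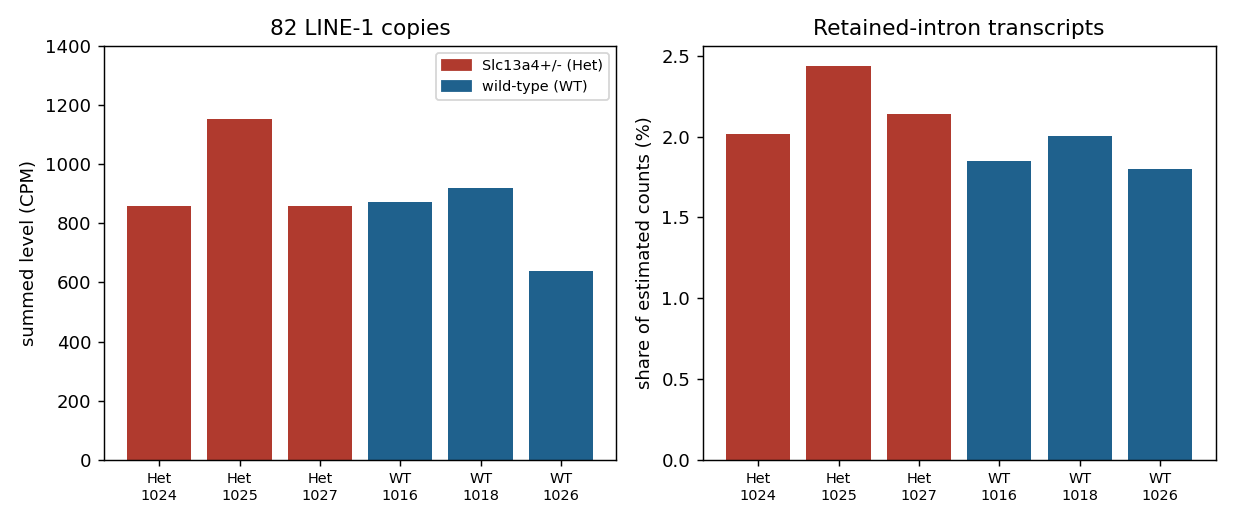
Left, the summed level of the 82 LINE-1 members in each mouse in CPM, and right, the share of all estimated counts on retained-intron transcripts in percent. Nas2Del_Het_1025 stands highest and Nas2Del_WT_1026 lowest in both panels, and each bar is 1 mouse.

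The median log2 fold change of the LINE-1 members, Slc13a4+/- over wild-type, was 0.24, with 77 of 82 above 0, against 0.01 and 51.8% over all transcripts tested. It was 0.08 without Nas2Del_Het_1025, 0.08 without Nas2Del_WT_1026 and -0.06 without both, with 24 of 82 above 0. The share of counts on retained-intron transcripts, which holds RNA with unspliced parts, was 2.02%, 2.44% and 2.14% in the Slc13a4+/- mice and 1.85%, 2% and 1.8% in the wild-type mice (2-sided exact permutation p = 0.1, the smallest that 3 mice against 3 allow). It had the same highest and lowest mouse as LINE-1, and its part in the LINE-1 values was not tested. No LINE-1 member was called between genotypes. The lowest p was that of Gm47654, an ORF1 copy at chr14:14429177-14430245, with 9.25, 11.5 and 10.4 CPM in the Slc13a4+/- and 7.82, 8.93 and 6.32 CPM in the wild-type mice. Its groups did not overlap, and edgeR gave a log2 fold change of 0.44 ± 0.15 (SE) at an adjusted p of 0.667. Without Nas2Del_Het_1025 and Nas2Del_WT_1026 this value for Gm47654 was 0.23.

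Across all members, edgeR's quasi-likelihood test on transcripts called none of the members that passed its filter on low counts (all but 6), at an adjusted p under 0.1. Over all 55196 transcripts tested it called 3, or 0.00544%. At an unadjusted p under 0.05, 8 members (2.26%) were higher in the Slc13a4+/- mice and 9 (2.54%) were lower, against 4.01% and 3.37% of all transcripts. The genotypes did not overlap in 31 members that were higher (8.76%) and 20 that were lower (5.65%), against 8.86% and 7.25%. These shares were below those of all transcripts. In edgeR on genes none of the members' genes was called, with 0.00585% of 17096 genes called, while 37 (10.5%) were higher and 9 (2.54%) lower by the unadjusted p of 0.05, against 4.98% and 4.17% of all genes. Of the members past this unadjusted threshold on transcripts, 15 also passed it on genes. The Wald test of DESeq2 was run on transcripts without the filter of edgeR. It called 3 members, all lower, with 0.705% of 64794 transcripts called and 0.446% called lower. Its unadjusted p was under 0.05 for 7 higher and 14 lower of 360 members, together 5.83%. Over 94393 transcripts the shares were 1.98% and 3.03%, together 5.02%. DESeq2 on genes called 1 member, Gm10359, which was lower (0.487% of all genes were called and 0.187% called lower). There 23 members were higher and 10 lower by the unadjusted p, together 9.17%, against 2.42% and 1.88% of all genes, together 4.29%.

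The 3 members called by DESeq2 were Gm4332, Gm10359 and Gm43110. Gm4332 copies Rps20, a protein of the small ribosomal subunit, and is a single exon at chr3:119709516-119709861. It had 13.5, 14.4 and 13.5 CPM in the Slc13a4+/- and 16.3, 17.4 and 17.0 CPM in the wild-type mice. All 3 Slc13a4+/- mice were lower than any wild-type mouse. The difference on the log2 scale was -0.30 ± 0.06 (SE) in edgeR, where the adjusted p was 0.667, and in DESeq2 it was -0.32 ± 0.08 (adjusted p = 0.0146). Its parent Rps20 was at 78.1 ± 5.51 and 79.5 ± 3.55 CPM (SD, n = 3 each). In edgeR on genes the log2 fold change of Rps20 was 0.005 ± 0.053 (SE), and that of Gm4332 was -0.26. Of the windows of Gm4332 as long as a read, 87.45% also occur in transcripts of coding genes. The counts of Gm4332 thus rest in part on how Salmon divided shared reads. Whether the copy changed apart from Rps20 was not tested.

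Gm10359, the copy identical to the Gapdh coding sequence at chr5:105862701-105863702, had 81.2, 90.4 and 104 CPM in the Slc13a4+/- mice. In the wild-type mice it had 109, 127 and 120 CPM, so that the groups did not overlap. On the log2 scale the difference was -0.37 ± 0.10 (SE) in edgeR (adjusted p = 0.667) and -0.39 ± 0.11 in DESeq2 (adjusted p = 0.0469). The parent Gapdh had a log2 fold change of 0.01 ± 0.04 in edgeR on genes, where that of Gm10359 was -0.34. As every 76-base window of Gm10359 also occurs in another listed transcript, its counts rest on how Salmon divided shared reads. In GENCODE M21, 1 other transcript has exactly the sequence of Gm10359, so these values cannot be assigned to this locus alone. Gm43110, a copy of Get4, did not pass the filter of edgeR. It was listed at 0 in all 3 Slc13a4+/- mice and in Nas2Del_WT_1016, and at 62.1 and 83.7 counts in the other 2 wild-type mice, so its adjusted p of 0.0889 in DESeq2 rested on 2 mice.

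The other 4 of the 6 lower members with the smallest p were Gm8186, Eif4a-ps4, Rpl28-ps1 and Gm1821, and each was lower in all 3 Slc13a4+/- mice than in any wild-type mouse. Gm8186 (Snrpg, a spliceosomal protein) had 1.4, 1.34 and 1.2 CPM against 1.85, 1.90 and 1.91 CPM, and its parent was at 13.0 ± 0.935 and 13.8 ± 0.671 CPM (SD, n = 3 each). Eif4a-ps4, which matched the gene of the translation initiation helicase Eif4a1, had 40.8, 37.9 and 37.4 CPM against 48.7, 44.3 and 42.3 CPM. Rpl28-ps1 had 36.2, 30.9 and 31.5 CPM against 37.4, 37.9 and 36.4 CPM. Gm1821 (Ubb) had 83.1, 79.5 and 76.6 CPM against 91.6, 85.6 and 84.3 CPM. Their log2 fold changes in edgeR were -0.52 ± 0.15, -0.22 ± 0.07, -0.18 ± 0.07 and -0.13 ± 0.05 (SE), each with an adjusted p of 0.667. For Gm1821 the value was -0.046 in edgeR on genes and -0.055 in DESeq2 on genes. For Ubb itself the change was -0.09 ± 0.04 on genes, also in the lower direction. Of the windows as long as a read, 100% in Gm8186 and Rpl28-ps1 also occur in transcripts of coding genes. This share was 93.35% in Eif4a-ps4 and 85.9% in Gm1821. The counts of these copies thus rest on how Salmon divided shared reads, and whether they changed apart from their parents was not tested.

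Of the 6 higher members with the smallest p, Gm47654 was described above. A pair of them lies on the X chromosome, 162377 bases apart on the minus strand. E530001F21Rik (chrX:105164632-105165361, matching Crxos at 98.36%) was at estimated counts of 26.5, 30.7 and 32.2 in the Slc13a4+/- mice and 14.8, 11.7 and 13.0 in the wild-type mice. Gm14824 (chrX:105327739-105328475, matching Crb1 at 81.92%) had 43, 69 and 60 against 21.4, 29 and 22. In both, every Slc13a4+/- mouse was above every wild-type mouse, and Nas2Del_WT_1016, the mouse with Ddx3y, lay among the other wild-type mice. Their log2 fold changes were 1.01 ± 0.30 and 1.09 ± 0.34 (SE). Crb1 was at 3.19 ± 0.744 and 3.15 ± 0.769 CPM (SD, n = 3 each), and none of the 76-base windows of Gm14824 occurs in another listed transcript.

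Gm47340, in an intron of Nav3 on the same strand, had 33, 51 and 43 counts in the Slc13a4+/- and 21, 19 and 15 in the wild-type mice, all whole numbers. Gm17205, on the opposite strand of Dock3, had 69.8, 85 and 63.8 against 46.8, 37.0 and 50.8 counts. Neither had a parent among coding genes, and the groups did not overlap. Gm10288, a copy of Rpl11 of the large ribosomal subunit, had 11.3, 10.6 and 10.6 CPM against 8.65, 9.76 and 9.06 CPM, while Rpl11 itself was at 103 ± 3.90 and 113 ± 6.20 CPM (SD, n = 3 each). The log2 fold changes of these 3 were 1.04 ± 0.35, 0.56 ± 0.23 and 0.24 ± 0.08 (SE), and the adjusted p in edgeR was 0.667 for each of the higher members named. Without Nas2Del_Het_1025 and Nas2Del_WT_1026 the value of Gm47340 was 0.64. In Gm10288, 83.55% of the windows as long as a read also occur in transcripts of coding genes. The counts of Gm10288 thus rest in part on how Salmon divided shared reads. Whether this copy changed apart from Rpl11 was not tested.

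**Figure D3:**
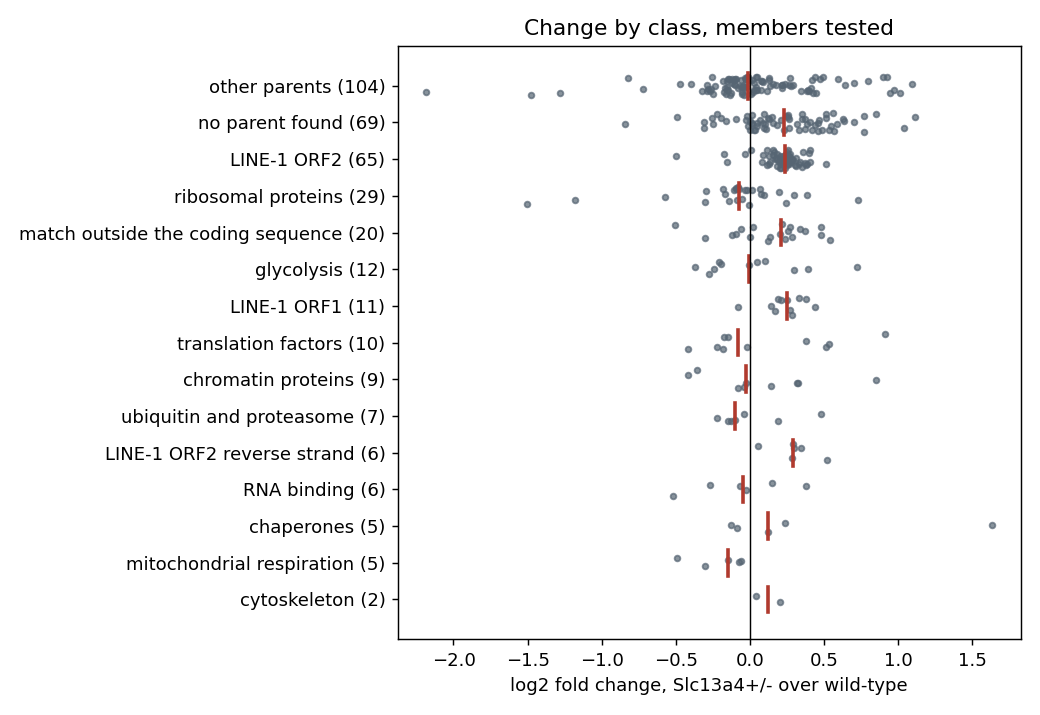
Log2 fold change in edgeR, Slc13a4+/- over wild-type, of the members tested, by class. Each point is 1 transcript and red bars mark class medians, which were 0.23 for LINE-1 ORF2 and -0.08 for ribosomal protein copies, and no member was called.

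By class, the median log2 fold change was 0.13 over all members tested, with 63.8% above 0. It was -0.08 for the 27 ribosomal protein copies tested, of which 9 were above 0, and -0.01 for the 101 members with parents outside the named classes. The 83 ribosomal protein genes themselves had a median of -0.07 on genes, with 78 of 83 below 0, against a median of -0.0045 over all genes. None of them was called by edgeR on genes. By the unadjusted p of 0.05 there were 0 higher and 7 lower of the 83, against 4.98% and 4.17% of all genes. DESeq2 called none of them either. The 69 members with no parent had a median of 0.23 and 55 above 0. Without Nas2Del_Het_1025 the median was 0.03 for all members and 0.03 for those with no parent, and without Nas2Del_WT_1026 it was 0.03 and 0.09. Without both mice it was -0.05 and -0.02. The ribosomal copies stayed at -0.08 in each of these 3 fits. Their median was nearer to 0 without Nas2Del_WT_1016, at -0.01, and without Nas2Del_Het_1027, at -0.03.

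The median change was also taken by how much sequence a member shares with other listed transcripts, measured as the percentage of its 76-base windows, the read length, that occur in another listed transcript on the same strand. All windows were shared in 62 members and none in 75. With at most 5% shared, 117 members had a median log2 fold change of 0.24 and 90 were above 0. From 5% to 50% the median was 0.18 (86 members), from 50% to 95% it was 0.14 (75 tested) and above 95% it was -0.08 (76 tested, 21 above 0). With LINE-1 left out these medians were 0.22, 0.10, -0.01 and -0.10. The median of the first of the 4 groups was 0.06 without Nas2Del_Het_1025, 0.12 without Nas2Del_WT_1026 and -0.01 without both. That of the last was -0.08, -0.11 and -0.09 without the former, without the latter and without both. Protein-coding transcripts as a whole had a median of -0.04, with 39.0% above 0.

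Members in an intron of another gene on the same strand numbered 67 (18.6%), against 9.98% of the processed pseudogene transcripts below the mean of 20 counts. Their median log2 fold change was 0.30 with 50 above 0, and it was 0.11 without Nas2Del_Het_1025, 0.25 without Nas2Del_WT_1026 and 0.05 without both. Retained-intron transcripts over the whole table had medians of 0.34, 0.21, 0.31 and 0.18 in the same 4 fits. Reads from an unspliced host RNA and from a copy inside its intron cannot be told apart in these files.

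The spread between mice was a coefficient of variation (CV) of 20.5% in the median over members, against 17.8% over all 46919 transcripts with a mean of 20 counts or more. A small group was set apart by values near 0. In 27 members (7.5%) at least 1 mouse was listed under 1 count, against 8.7% of those 46919 transcripts, so such values were not more common among the members. The median CV of these 27 was 86.4%, but they were picked by a value near 0, which by itself makes the CV large. That of their parents, which were not picked this way and of which 24 had a value, was 5.26%. The parents were measured as whole genes and at higher levels, the copies at 0.0919% to 16.5% of them. The CVs of copies and parents are thus not like for like. Of these 27, 26 were among the 157 members with over 50% of windows shared and 0 among the 117 with at most 5% shared, and none was a LINE-1 copy. They occurred in every mouse, from 5 in Nas2Del_WT_1018 to 13 in Nas2Del_WT_1016.

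**Figure D4:**
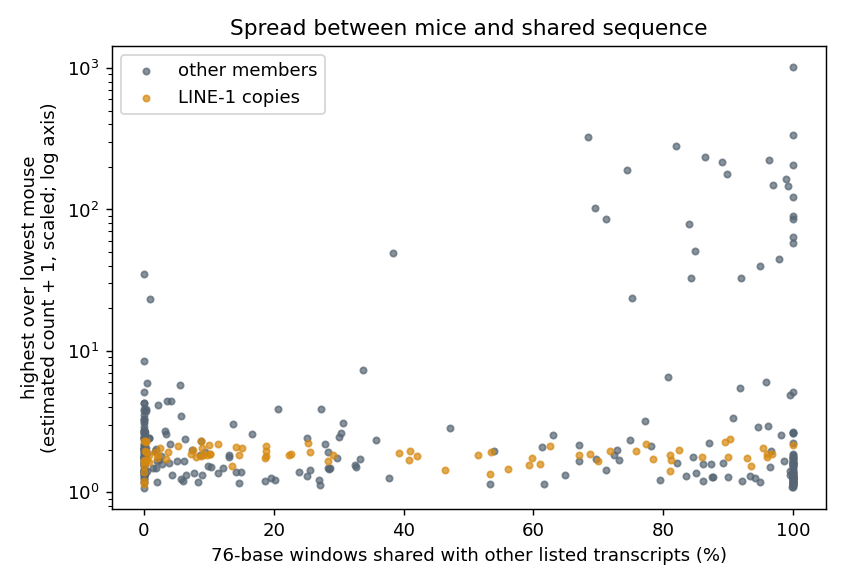
Ratio of the highest to the lowest mouse, from scaled estimated counts with 1 count added, on a log axis, against the percentage of 76-base windows shared with other listed transcripts, for 360 members. The 26 of 27 members listed under 1 count in a mouse lie to the right of 50%, and LINE-1 copies (orange) stay at low ratios at every percentage.

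Rpl10a-ps1, identical to the coding sequence of Rpl10a of the large ribosomal subunit, had the largest ratio between mice. It was listed at 945, 404.5 and 0 counts in the Slc13a4+/- mice and at 0, 789.6 and 1036.6 in the wild-type mice. Rpl10a was at 90.7, 93.3 and 101 CPM and at 114, 91.2 and 84.8 CPM in the same mice, so that the parent was highest in the 2 mice where the copy was listed at 0. Rpl14-ps1 was listed at 0 in Nas2Del_Het_1024, Nas2Del_Het_1027 and Nas2Del_WT_1016 and at 178.6, 176.4 and 324.1 counts in Nas2Del_Het_1025, Nas2Del_WT_1018 and Nas2Del_WT_1026. In neither did the zeros follow the genotype.

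Gm10698, a copy of Tmed2, was listed at 0 only in Nas2Del_WT_1016 and at 237 to 396 counts in the other 5 mice. Gm8116, matching Carnmt1, was also listed at 0 only in Nas2Del_WT_1016, with 92.2 to 276.7 counts elsewhere. Gm10108, a copy of the cytochrome c gene Cycs, was at 0 only in Nas2Del_Het_1024 and at 169 to 274 counts in the others. Gm28900 (Rpl21) was at 0 in all 3 Slc13a4+/- mice and in Nas2Del_WT_1016 and had 171 and 176 counts in the other 2 wild-type mice, but it did not pass the filter of edgeR and the groups shared a 0. Its parent Rpl21 was at 195 ± 12.6 and 206 ± 4.45 CPM (SD, n = 3 each). Of the 27, 3 were under 1 count in every Slc13a4+/- mouse and 1 in every wild-type mouse. Whether a listed 0 was an absent transcript or a division of shared reads was not tested.

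**Figure D5:**
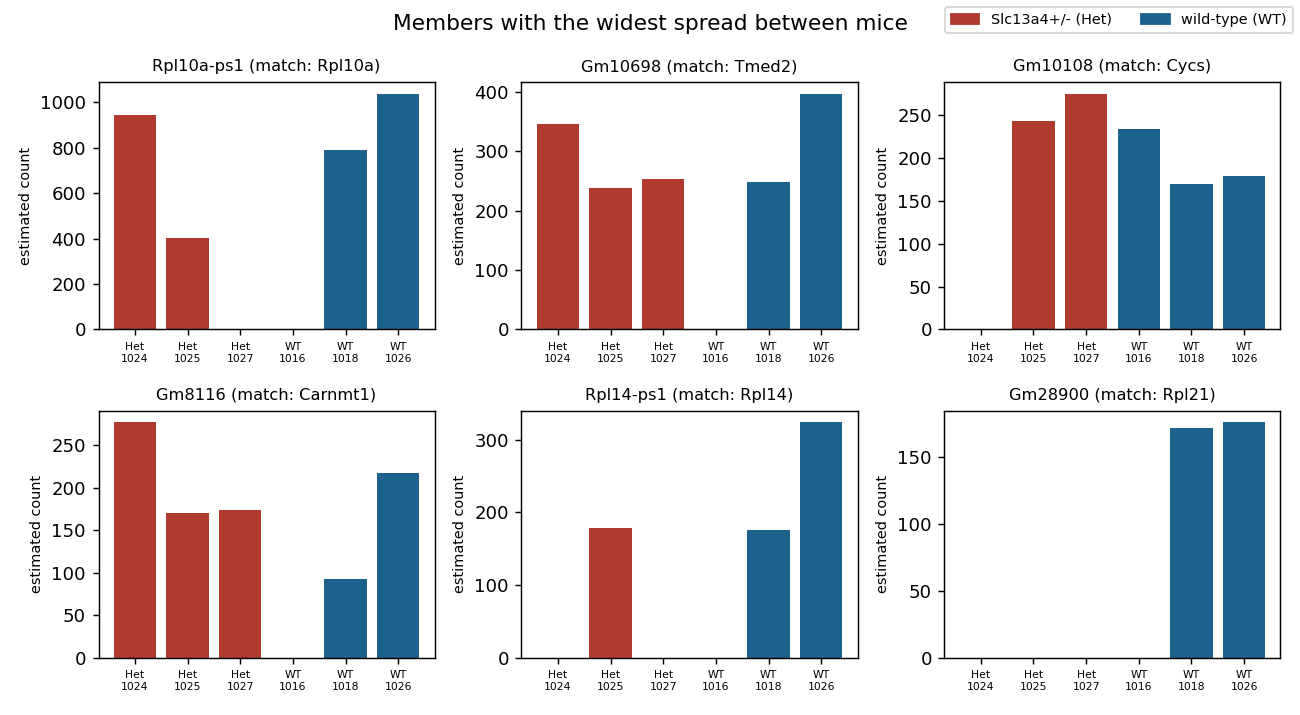
Estimated counts in each mouse of the 6 members with the largest ratio between mice, with the matching coding gene in brackets. Each bar is 1 mouse and a missing bar is a listed value of 0. The 0 values fall in mice of both genotypes, as for Rpl10a-ps1, and in Nas2Del_WT_1016 for 5 of the 6.

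The single member on the Y chromosome, Gm2316 (chrY:3766452-3767372), had 45, 46.2 and 39.4 counts in Slc13a4+/- and 26.7, 23.5 and 0 in wild-type animals. Ddx3y, the Y-linked RNA helicase, was at 0.0128, 0 and 0.0132 CPM in the same Slc13a4+/- mice. Counts on Gm2316 therefore did not follow Ddx3y, and 84.9% of its 76-base windows occur in other listed transcripts.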

How the data were processed

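RNA from the whole forebrain of 6 mice was sequenced as 76-base read pairs, and the authors quantified transcripts with Salmon 1.2.0 with its correction for GC bias. The deposited files give an estimated count and a TPM value for each of 117135 transcripts. Which build and transcripts Salmon was indexed on was not stated in the sources used here. Of the transcripts listed, 115973 matched GENCODE M21 (GRCm38), which gave type, position and sequence. The 1162 others held 0.620% to 0.645% of counts and stayed in the fits.

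Estimated counts were rounded, filtered with filterByExpr, scaled by TMM and tested with edgeR 4.0.16 (quasi-likelihood, R 4.3.3) over all transcripts, with Benjamini-Hochberg adjustment and a threshold of 0.1. DESeq2 1.42.0 and gene-level fits were alternatives, with the other alternatives given in the closing section. Parents were found with BLAST 2.17.0 (e-value 1e-10, 50% of the length, 80% identity), and Python 3.11.15 summarised the results. CPM values of transcripts and genes are scaled by the TMM factors of the transcript fit. Fold changes on genes come from fits with their own scaling, so they can differ slightly from the CPM of a gene. The depth of 60340337 counts or more limits transcripts near 20 counts most.

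The members and lists were chosen with earlier results of these data known. Named transcripts were the 10 with the most counts, any called, the 6 higher and 6 lower with the smallest p, the 6 with the largest ratio between mice, 3 on either side of the limit, the first of each parent class and their parents. Gapdh copies, Gm2316, Gm43110, Gm14113, Gm42785 and the paired LINE-1 copies were chosen after values were seen. So were the LINE-1 classes, the check against coding sequences, the limit of 1 count, the groups by shared windows and by position, and the fit without Nas2Del_Het_1025 and Nas2Del_WT_1026.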

Additional observations from a re-analysis of the deposited data

How the results depend on the processing

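The number of members called, 0 in edgeR, was 3 in DESeq2 on transcripts, 1 in DESeq2 on genes and 0 to 0 with each mouse left out. Gm10359 passed in both DESeq2 fits, at log2 fold changes of -0.39 and -0.34, and Gm4332 on transcripts only, at -0.32. Over all transcripts, 3 calls became 457 in DESeq2, 86 in DESeq2 on genes, 1 in edgeR on genes, 0 with a minimum mean of 20 counts, 0 without Nas2Del_Het_1025 and Nas2Del_WT_1026 together (chosen after seeing the data) and 0 to 6 with each mouse left out. Members at an unadjusted p under 0.05 numbered 17, and 46 and 33 in edgeR and DESeq2 on genes. With each mouse left out they numbered 6 to 25, with 6 without Nas2Del_Het_1025 and 6 without Nas2Del_Het_1027. Their median log2 fold change of 0.13 was -0.048 without both mice and 0.03 to 0.18 with each left out, and that of LINE-1 was -0.06 without both. That of ribosomal protein copies was -0.11 to -0.01 with each left out. The difference in the members' share of counts, 0.0139 percentage points higher in Slc13a4+/- mice, was -0.00511 by TPM and -0.00096 without Nas2Del_WT_1026, in a range of -0.00096 to 0.0254 with each mouse left out. Except where a value or the smaller number of mice shows it, the cause was not tested. No paired analysis was possible because the animal numbers are not shared between genotypes and litters are not given.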
